A study of Drosophila melanogaster with 47 samples.

Results

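Glial marker genes were followed across the *tim* deletion strains and around the day. The set held 9 genes, *repo*, *moody*, *Gs2*, *Eaat1*, *Gat*, *alrm*, *wrapper*, *axo* and *nrv2*, chosen by symbol among the 17137 genes of the count table. Each symbol matched 1 row, and none of the 9 shared its counts with another gene. Fly glia fall into layers with separate tasks. Perineurial and subperineurial glia form the blood-brain barrier, cortex glia enclose neuronal cell bodies, ensheathing and wrapping glia surround neuropil and axon tracts, and astrocyte-like glia send processes into the neuropil, where they take up glutamate and GABA. Several glial classes also hold a molecular clock, and *tim* RNA is made in glia as well as in clock neurons and photoreceptors. By class, the set contained *repo* as the pan-glial member, *moody* for surface glia, *Gs2* for glutamine synthesis, *Eaat1*, *Gat* and *alrm* for astrocyte-like glia, *wrapper* for cortex glia, and *axo* and *nrv2* for ensheathing and wrapping glia.

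Poly(A) RNA came from whole heads of male and female flies kept for 4 d in 12:12 LD at 25 °C. The control strain *yw* was compared with 4 CRISPR deletion strains homozygous for the altered second chromosome: *tim_up126*, *tim_up122* and *tim_up10*, which lack a stretch upstream of *tim*, and *tim_in24*, which lacks a stretch of a *tim* intron (each name ends in the number of bp removed). Each strain is 1 deletion line, so its deletion and the rest of its genome cannot be told apart. Heads were taken every 4 h from ZT2 to ZT22 (ZT0 being lights on), giving 11 libraries of *yw* (1 at ZT18), 12 each of *tim_up126* and *tim_up122* (2 per time point), and 6 each of *tim_up10* and *tim_in24* (1 per time point). Nothing in the labels says whether the 2 replicates came from separate cultures or extractions, so p-values measure the spread between these samples. Totals ran from 1761896 to 10230355 counts per library. Levels are in CPM, counts relative to the TMM-scaled library total, and 11027 genes, among them all 9 members, passed edgeR's filter on low counts. The lowest member count in any library was 62.

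The level of the targeted gene was compared between genotypes first. Against a median *tim* level of 928 CPM in *yw*, *tim_up126* had 144, *tim_up122* 341, *tim_up10* 399 and *tim_in24* 777 CPM. All 12 *tim_up122* libraries and all 6 each of *tim_up10* and *tim_in24* were within the *yw* range, 110 to 1936 CPM over the day. These medians therefore cannot check the labels of single libraries or tell *tim_up10* from *tim_up122*. Over the day *tim* was not called in *tim_in24* against *yw* (adjusted p = 0.842 by edgeR). The *yw* ZT22 libraries stood apart from each other, with 1535 and 448 CPM of *tim* in replicates 1 and 2, and results that change without one of them are named below. The *yw* ZT18 library had 1489 CPM of *tim*, and whether a time label is wrong was not tested. Heads also hold neurons, photoreceptors, fat body, muscle and hemocytes, and markers of these cells were present in all libraries. Summed neuron markers had a median of 4381 CPM in *yw* and of 4550 (*tim_up126*), 4665 (*tim_up122*), 4846 (*tim_up10*) and 4663 CPM (*tim_in24*) in the others, with the lowest value, 3060 CPM, in the *tim_in24* ZT22 library. At an adjusted p under 0.05, edgeR's quasi-likelihood test called 0, 1, 1 and 0 of the 8 neuron markers in these strains in that order (at an unadjusted p under 0.05, 1 in each, and by DESeq2 1, 1, 1 and 0). Summed fat body markers had medians of 7854 CPM in *yw* and 9344, 9486, 12607 and 9645 CPM in the deletion strains, and 4, 2, 3 and 3 of the 5 were called higher. Of the 7 photoreceptor markers, 3, 2, 4 and 5 were called higher and 0, 1, 1 and 1 lower, the lower one being *trpl* (-0.33 in *tim_up122*, -0.35 in *tim_up10* and -0.28 in *tim_in24*). These counts stood beside 25.4%, 26.2%, 23.4% and 25.5% of all genes called in these strains. Summed hemocyte markers had a median of 241 CPM for *yw* (204 to 276), 253 for *tim_up126*, 163 for *tim_up122* (108 to 275), 318 for *tim_up10* and 231 CPM for *tim_in24*. *Hml* and *eater* were lower in *tim_up122* (-0.73 and -1.15 on the log2 scale) and *eater* in *tim_up126* (-0.45), while *NimC1* was higher in each strain, by 2.53 to 3.28. The *eater* call in *tim_up126* was absent with the random replicate block described below. Muscle sums had a median of 2535 CPM in *yw* and from 2362 to 2526 CPM in the deletion strains, and 0, 2, 0 and 3 of the 5 muscle markers were called higher and 1, 2, 1 and 2 lower. In bulk heads, fewer glia and less of an RNA per glial cell cannot be told apart, and the part that other cell types had in the strain differences below was not tested.

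Libraries of a strain with the same replicate number also shared deviations. Summed neuron markers were 3955 to 4220 CPM in the 6 *tim_up126* libraries of replicate 1 and 4881 to 5633 CPM in the 6 of replicate 2. In *tim_up122* replicate 1 was above replicate 2 at all 6 time points, and in *yw* at 1 of 5. Among the glial genes, *axo* was lower in replicate 1 than in replicate 2 of *tim_up126* at all 6 time points, with means of 92.7 and 106 CPM. edgeR's test below treats the libraries as independent, so its p-values may be too small for differences between strains. The strain differences were therefore also fitted by limma-voom with the replicate number of each strain as a random block, an alternative chosen after the data were seen, which rests on 2 sets of libraries in *yw*, *tim_up126* and *tim_up122* and on 1 in *tim_up10* and *tim_in24*.

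In *yw* heads the 9 genes spanned a wide range of levels. Per kilobase of annotated exon, *Gs2* was highest at 599 CPM, followed by *Eaat1* at 156, *nrv2* at 102, *alrm* at 63.1, *Gat* at 49.0, *repo* at 25.2, *wrapper* at 24.5, *moody* at 17.1 and *axo* at 11.1 CPM per kilobase. Neighbours in this order did not overlap in any *yw* library except *repo*, from 23.2 to 27.6, and *wrapper*, from 22.3 to 27.3 CPM per kilobase. *alrm* ranged from 54.4 to 72.6 and *Gat* from 44.1 to 53.8 CPM per kilobase, so they came close. In dm6 the genes lie apart from each other: *repo* (FBgn0011701, chr3R:18236192-18239602, plus strand), *moody* (FBgn0025631, chrX:2044292-2050120, minus), *Gs2* (FBgn0001145, chrX:11422832-11430197, plus), *Eaat1* (FBgn0026439, chr2L:9333567-9341925, plus), *Gat* (FBgn0039915, chr4:629691-635350, plus), *alrm* (FBgn0039332, chr3R:25381065-25382781, minus), *wrapper* (FBgn0025878, chr2R:22379637-22382675, plus), *axo* (FBgn0262870, chr3L:4629604-4687317, minus) and *nrv2* (FBgn0015777, chr2L:6789770-6798862, minus). *tim* is on 2L as well (chr2L:3493986-3508119, minus). Since no strand setting is given, reads from overlapping antisense exons cannot be told apart: *CG7156* covers 183 of the 2996 exonic bases of *repo* and had a median of 84 counts against 308 for *repo*, and *asRNA:CR45830* covers 358 of the 9106 exonic bases of *axo*.

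**Figure D1:**
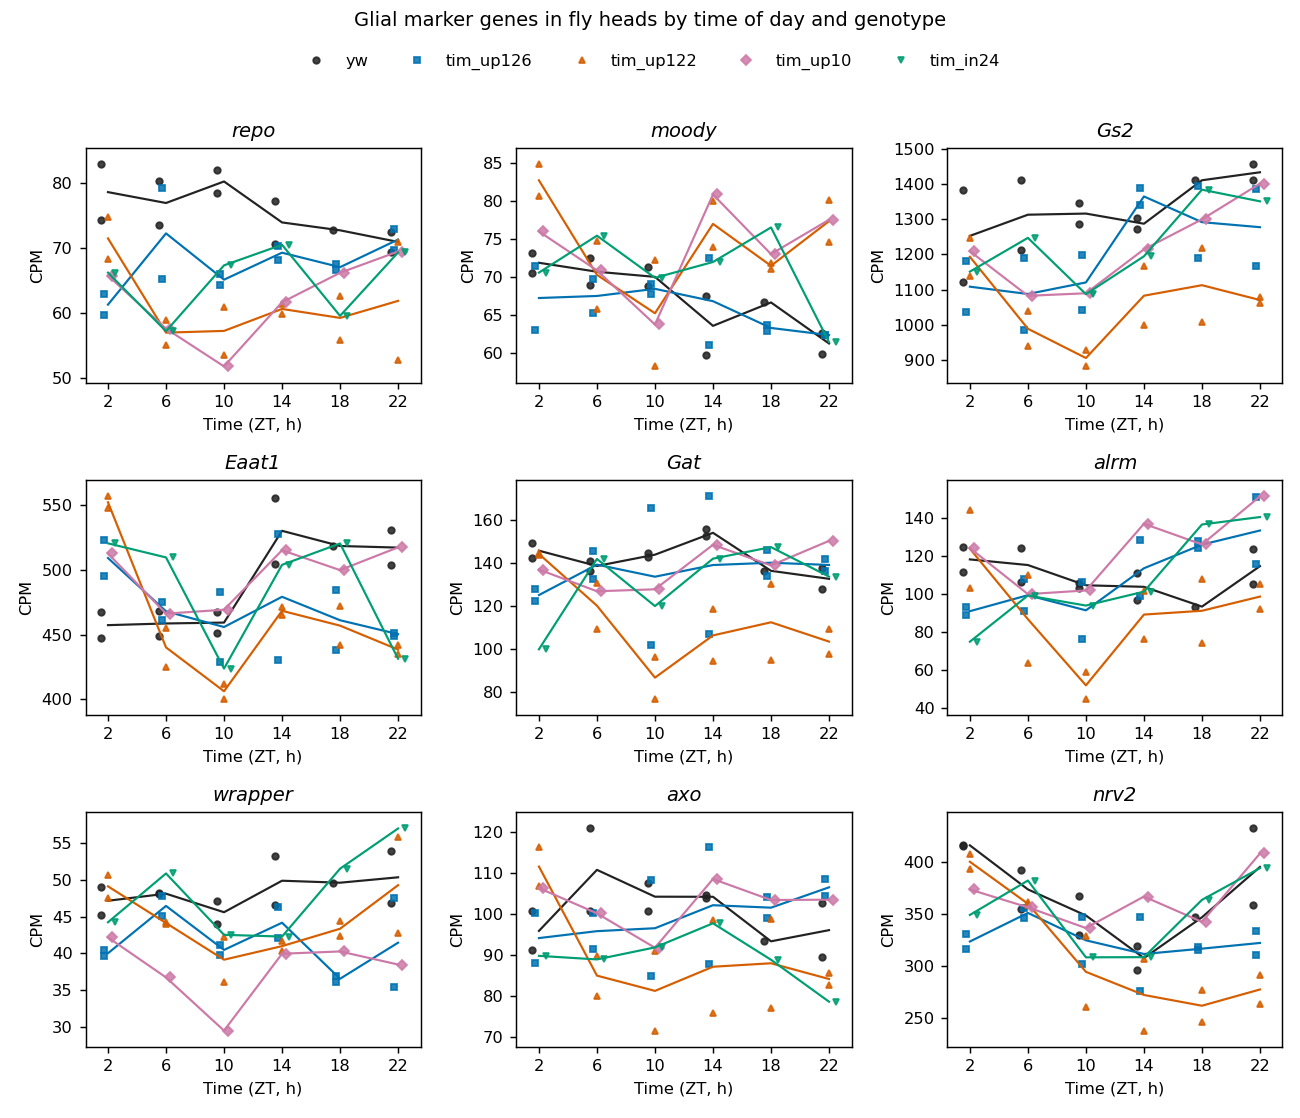
CPM of each glial marker gene (y axis, own scale in each panel, not starting at 0) against time of day (x axis, ZT in h), with 1 point per library, offset sideways by genotype, and lines through the mean of each genotype at each time point. In the *repo* panel the *yw* points, from 69.4 to 82.8 CPM, lie above most points of the deletion strains, and in the *wrapper* panel all 6 *tim_up10* points lie below every *yw* point.

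The first question was whether glial RNA levels over the whole day differed between *yw* and each deletion strain. *repo* was lower than *yw* in each of the 4 comparisons, with *tim_up126* at 89.7%, *tim_up122* at 81.1%, *tim_up10* at 82.2% and *tim_in24* at 86.1% of the *yw* level, a call that held with the random replicate block in *tim_up122* and *tim_up10* alone. In *tim_up122* most of the set was lower, including *Gs2*, *Gat*, *alrm* and *nrv2*, while *moody* was higher. In the other strains the lower genes were few: *repo*, *wrapper* and *nrv2* in *tim_up126*, *repo* and *wrapper* in *tim_up10*, and *repo* alone in *tim_in24*. The 4 comparisons share the 11 *yw* libraries and are not independent of each other.

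edgeR's quasi-likelihood test with Benjamini-Hochberg adjustment over 11027 genes called 3 of 9 members in *tim_up126*, all lower, beside 25.4% of all genes (13.3% lower). In *tim_up122* it called 7 of 9, 6 lower and 1 higher, beside 26.2% of all genes (13.6% lower, 12.6% higher). The 2 calls in *tim_up10*, both lower, stood beside 23.4% of all genes (12.2% lower), and the single call in *tim_in24* beside 25.5% (13.1% lower). The members' log2 fold changes had a median of -0.06 for *tim_up126*, -0.24 for *tim_up122*, 0.00 for *tim_up10* and -0.05 for *tim_in24*. Over all genes tested it was -0.01, 0.00, -0.04 and -0.03. The members' counts in *tim_up126*, *tim_up10* and *tim_in24* were thus near the background, and the count in *tim_up122* was above it. Scaling by library totals in place of TMM moved the median of all genes in *tim_up10* by -0.13 on the log2 scale and by less than that in the other strains. With totals 4, 8, 3 and 3 members were called in these strains in that order, all lower. The median of all genes was then -0.06, -0.04, -0.17 and -0.10, and the share of all genes called with totals is not given here. With the random block limma-voom called 1, 4, 2 and 0 members beside 17.2%, 17.8%, 13.1% and 16.6% of all genes: *wrapper* in *tim_up126*, *repo*, *Gs2*, *Gat* and *nrv2* in *tim_up122*, and *repo* and *wrapper* in *tim_up10*. Without that block it called 4, 7, 2 and 1, beside 26.1%, 26.7%, 22.2% and 25.4% of all genes. In *tim_up122* the hemocyte markers *Hml* and *eater* were lower and *NimC1* was higher, and their part in the members' result was not tested.

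**Figure D2:**
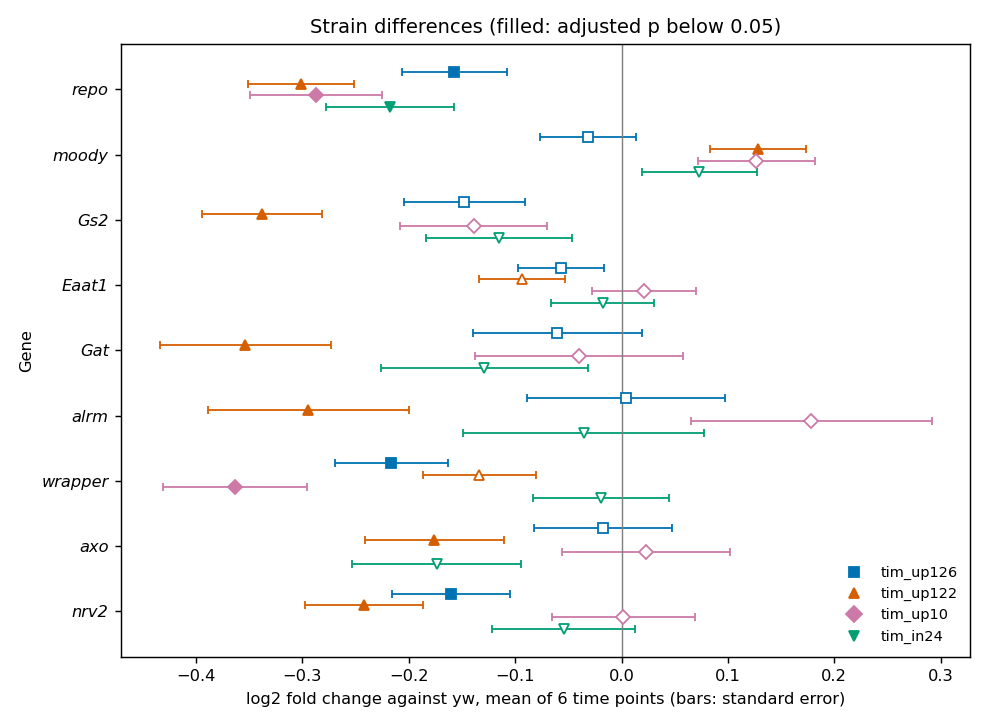
Log2 fold change of each gene against *yw*, as the mean of 6 time points (x axis), for the 4 deletion strains, with bars for the standard error and filled symbols for an adjusted p under 0.05. The 4 *repo* symbols are filled and lie between -0.30 and -0.16, whereas the *alrm* symbols spread from -0.29 in *tim_up122* to 0.18 in *tim_up10*.

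*repo* encodes a homeodomain transcription factor found in nearly all glia outside the midline and is the usual pan-glial marker. Its level ranged from 69.4 to 82.8 CPM in *yw*, with a median of 74.3. The corresponding values (lowest, median and highest) were 59.7, 67.1 and 79.2 CPM in *tim_up126*, 52.9, 60.5 and 74.7 in *tim_up122*, 51.8, 63.7 and 69.5 in *tim_up10*, and 57.2, 66.8 and 70.5 in *tim_in24*. The groups overlapped, but 8 of 12 *tim_up126* libraries, 10 of 12 *tim_up122* libraries and 5 of 6 libraries each of *tim_up10* and *tim_in24* were below the lowest *yw* library. The mean of the 6 time points fell from 75.5 ± 3.59 CPM in *yw* (SD over time points, n = 6) to 67.7 ± 4.09, 61.3 ± 5.34, 62.1 ± 6.47 and 65.0 ± 5.39 CPM in the same order of strains. In this ranking only the step from *yw* to *tim_up126* was larger than the spread over time points. The log2 fold changes were -0.16 (SE 0.049) in *tim_up126*, -0.30 (SE 0.050) in *tim_up122*, -0.29 (SE 0.062) in *tim_up10* and -0.22 (SE 0.060) in *tim_in24*, with adjusted p of 0.0198, 4.68e-05, 0.00114 and 0.00849 by edgeR. At all 6 time points the *repo* mean was below *yw* in *tim_up122*, *tim_up10* and *tim_in24*, and at 5 of 6 in *tim_up126*. The call in *tim_up126* was lost with DESeq2 (adjusted p = 0.068), without a filter on low counts (0.0942) and without *tim_up126* ZT14 replicate 2 (0.0512), and that in *tim_in24* without *tim_in24* ZT6 replicate 1 (0.0578). In *tim_up122* and *tim_up10* the call held in all fits that left out 1 library. With the random replicate block it was lost in *tim_up126* (adjusted p = 0.0882 by limma-voom) and *tim_in24* (0.0555).

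*moody*, a G protein-coupled receptor that subperineurial glia need to seal the blood-brain barrier, was the only member called higher. It ranged from 59.7 to 73.2 CPM in *yw* (median 68.7), from 61.1 to 72.5 in *tim_up126* (64.5), from 58.2 to 84.8 in *tim_up122* (74.3), from 63.7 to 80.9 in *tim_up10* (74.5) and from 61.4 to 76.5 in *tim_in24* (71.3). The groups overlapped. Above the highest *yw* library lay 7 of 12 *tim_up122* libraries, 3 of 6 of *tim_up10* and 2 of 6 of *tim_in24*. The log2 fold change was 0.13 in both *tim_up122* (SE 0.045, adjusted p = 0.0357 by edgeR) and *tim_up10* (SE 0.055, adjusted p = 0.103), 0.07 in *tim_in24* (95% interval -0.03 to 0.18) and -0.03 in *tim_up126* (-0.12 to 0.06). With library totals the *tim_up10* value was -0.00029. The *tim_up122* call rested on small margins. It was absent with the random replicate block (adjusted p = 0.162 by limma-voom), with DESeq2 (adjusted p = 0.0952), with library totals (0.183) and without a filter (0.140), and ended without any one of *yw* ZT2 replicate 2, ZT6 replicate 1, ZT10 replicate 2, ZT14 replicate 1 or ZT22 replicate 2, or of *tim_up122* ZT2 replicate 1, ZT6 replicate 1, ZT10 replicate 1 or ZT22 replicate 2 (adjusted p up to 0.0843).

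Most calls among other genes of the barrier and its septate junctions were lower. Of 10 listed genes, *tim_up126* had 0 higher and 3 lower, *tim_up122* 0 and 5, *tim_up10* 1 and 2, and *tim_in24* 0 and 4, with median log2 fold changes of -0.14, -0.13, -0.12 and -0.12. Beside 25.4%, 26.2%, 23.4% and 25.5% of all genes called, the 3 calls each in *tim_up126* and *tim_up10* were near the background. With the random replicate block 1, 3, 2 and 4 were called, beside 17.2%, 17.8%, 13.1% and 16.6% of all genes. *Gli*, gliotactin of the tricellular junctions, was lower in each comparison, at -0.24 (SE 0.072) in *tim_up126*, -0.29 (SE 0.072) in *tim_up122*, -0.33 (SE 0.091) in *tim_up10* and -0.40 (SE 0.089) in *tim_in24*, and with that block was called in *tim_up122* and *tim_in24*. *loco*, a regulator of G protein signalling that works with *moody*, was lower in *tim_up126* (-0.18), *tim_up122* (-0.24) and *tim_in24* (-0.27), and was at -0.16 in *tim_up10* (adjusted p = 0.0655 by edgeR). The septate junction genes *cora* and *Nrx-IV* were lower in *tim_up122* (-0.18 and -0.15) and *tim_in24* (-0.29 and -0.21), and *cora* also in *tim_up10* (-0.18). The trehalose transporter gene *Tret1-1* was lower in *tim_up122* (-0.27). *Mdr65*, an ABC transporter of the barrier, was lower in *tim_up126* (-0.13) and higher in *tim_up10* (0.29). With the random replicate block the calls of *Mdr65* in *tim_up126* and of *Tret1-1* and *Nrx-IV* in *tim_up122* were lost.

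*Gs2* encodes a glutamine synthetase, which in glia turns glutamate taken up at synapses into glutamine. It was the most abundant member, at 1121 to 1456 CPM in *yw* (median 1347). Lowest, median and highest levels were 985, 1190 and 1395 CPM in *tim_up126*, 882, 1050 and 1247 in *tim_up122*, 1083, 1212 and 1401 in *tim_up10*, and 1087, 1221 and 1384 in *tim_in24*. In *tim_up122* 8 of 12 libraries were below every *yw* library and the other 4 within the *yw* range, and in the other strains most libraries were within it. *Gs2* was at 79.3% of its *yw* level in *tim_up122*, a log2 fold change of -0.34 (SE 0.056, adjusted p = 5.68e-05 by edgeR), which held with each library left out. In *tim_up126* it was -0.15 (SE 0.057, adjusted p = 0.0579). That value passed the threshold with library totals (0.0104), with an additive model (0.0309) and in 7 of 23 fits with 1 library left out. In *tim_up10* it was -0.14 (adjusted p = 0.157) and in *tim_in24* -0.12 (adjusted p = 0.240), although the mean was below *yw* at 6 of 6 time points in both. With library totals these were called, at -0.26 (adjusted p = 0.00439) and -0.18 (adjusted p = 0.0445 by edgeR). In the ranking of genotypes, only the step from *tim_up126* at 1208 CPM to *tim_up122* at 1059 CPM exceeded the spread over time points.

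The second glutamine synthetase gene, *Gs1*, whose product is mitochondrial, was called higher in each comparison, whereas *Gs2* was called lower in *tim_up122*. The difference between the genes was not tested. *Gs1* was higher by 0.68 (SE 0.045) in *tim_up126*, 0.58 (SE 0.045) in *tim_up122*, 0.71 (SE 0.054) in *tim_up10* and 0.59 (SE 0.054) in *tim_in24* on the log2 scale. Of the 8 listed genes of transmitter uptake and recycling, 2 were called higher and 2 lower in *tim_up126*, 2 and 3 in *tim_up122*, 3 and 1 in *tim_up10*, and 2 and 2 in *tim_in24*, beside 25.4%, 26.2%, 23.4% and 25.5% of all genes. With the random replicate block 3, 5, 3 and 4 were called, *Gs1* and *ine* in each strain, beside 17.2%, 17.8%, 13.1% and 16.6% of all genes. *ine*, a member of the neurotransmitter transporter family, was lower in each comparison, at -0.36, -0.41, -0.29 and -0.33. *Gabat*, the GABA transaminase, was lower in *tim_up126* (-0.20), *tim_up122* (-0.31) and *tim_in24* (-0.22) and was at -0.10 in *tim_up10* (adjusted p = 0.146 by edgeR). *Eaat2*, the second excitatory amino acid transporter gene, was higher in *tim_up122* (0.16) and *tim_up10* (0.15), and with that block was called in *tim_up122* alone.

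Astrocyte-like glia were represented by *Eaat1*, the high-affinity glutamate transporter, *Gat*, the GABA transporter, and *alrm*, a leucine-rich repeat protein that marks these cells. *Gat* and *alrm* were lower in *tim_up122* and were not called in the other strains, and *Eaat1* was not called in any. *Gat* ranged from 128 to 156 CPM in *yw* (median 142), from 102 to 171 in *tim_up126* (135), from 77.0 to 145 in *tim_up122* (109), from 127 to 150 in *tim_up10* (138) and from 99.9 to 147 in *tim_in24* (138). In *tim_up122* 8 of 12 libraries were below the lowest *yw* library. The log2 fold change there was -0.35 (SE 0.080, adjusted p = 0.00160 by edgeR), the mean was below *yw* at all 6 time points, and the call held with each library left out. Elsewhere *Gat* was at -0.06 in *tim_up126* (95% interval -0.22 to 0.10), -0.04 in *tim_up10* (-0.23 to 0.15) and -0.13 in *tim_in24* (-0.32 to 0.06).

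*alrm* was the most variable member. It ranged from 93.4 to 125 CPM in *yw* (median 106), from 76.6 to 151 in *tim_up126* (107), from 45.0 to 144 in *tim_up122* (97.0), from 99.9 to 151 in *tim_up10* (125) and from 74.9 to 141 in *tim_in24* (100.2). The *tim_up122* libraries reached both below and above the *yw* range, with 6 below and 1 above. The median log2 difference between the 2 replicates of a group was 0.25 for *alrm* over 17 pairs, against 0.06 to 0.19 for the other members and 0.18 over all genes tested. It was 0.20 in *yw*, 0.31 in *tim_up126* and 0.44 in *tim_up122*. Over the day *alrm* was lower in *tim_up122* by -0.29 (SE 0.094, adjusted p = 0.0217 by edgeR). The call ended without *tim_up122* ZT10 replicate 2, ZT14 replicate 2 or ZT18 replicate 1 (log2 fold changes from -0.38 to -0.24 over all left-out fits, adjusted p up to 0.0626) and with the random replicate block (0.0910 by limma-voom). In *tim_up126* it was 0.00 (95% interval -0.18 to 0.19), in *tim_up10* 0.18 (-0.04 to 0.40) and in *tim_in24* -0.04 (-0.26 to 0.19). In a fit of *yw* and *tim_up10* alone *alrm* was called higher, at 0.19 (SE 0.062, adjusted p = 0.0449 by edgeR).

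*Eaat1* stayed close to *yw*. It ranged from 447 to 555 CPM in *yw* (median 468), from 429 to 527 in *tim_up126* (468), from 401 to 556 in *tim_up122* (449), from 466 to 517 in *tim_up10* (506) and from 424 to 520.3 in *tim_in24* (507). Its log2 fold changes were -0.06 (95% interval -0.14 to 0.02), -0.09 (-0.17 to -0.01, adjusted p = 0.0908 by edgeR), 0.02 (-0.07 to 0.12) and -0.02 (-0.11 to 0.08) in *tim_up126*, *tim_up122*, *tim_up10* and *tim_in24*. With library totals the *tim_up122* value was called (adjusted p = 0.0187). No step in its ranking of genotypes exceeded the spread over time points.

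*wrapper*, a cell surface protein of the immunoglobulin superfamily made by cortex glia in the adult brain and by midline glia in the embryo, was the member that differed most in *tim_up10*. It ranged from 44.1 to 53.9 CPM in *yw* (median 48.1) and from 29.5 to 42.2 CPM in *tim_up10* (39.2), so all 6 *tim_up10* libraries were below every *yw* library. This was the only member whose groups did not overlap in any strain. The share of all genes with every library below every *yw* library was 1.72% for *tim_up126*, 1.76% for *tim_up122*, 2.93% for *tim_up10* and 3.16% for *tim_in24*, and the share with every library above was 1.56%, 1.26%, 3.94% and 3.8%. It ranged from 35.4 to 47.8 CPM in *tim_up126* (40.8), from 36.1 to 55.8 in *tim_up122* (43.4) and from 42.3 to 57.0 in *tim_in24* (47.6). The log2 fold change was -0.36 in *tim_up10* (SE 0.068, adjusted p = 0.000256 by edgeR) and -0.22 in *tim_up126* (SE 0.053, adjusted p = 0.00317). Both calls held with each library left out, and with DESeq2, without a filter and with each scaling. In *tim_up122* it was -0.13 (SE 0.053, adjusted p = 0.0662) and in *tim_in24* -0.02 (95% interval -0.14 to 0.11). The *tim_up122* value was called with library totals (0.0201) and in 4 of 23 fits with 1 library left out. *zyd*, a potassium-dependent sodium/calcium exchanger that acts in cortex glia, was lower in each comparison, at -0.23, -0.20, -0.24 and -0.18 in *tim_up126*, *tim_up122*, *tim_up10* and *tim_in24*. With the random replicate block *zyd* was called in *tim_up126*, *tim_up122* and *tim_up10* but not in *tim_in24*.

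*axo*, a neurexin-related protein that glia around axons make, and *nrv2*, a beta subunit of the sodium pump whose promoter is used to label cortex, ensheathing and wrapping glia, were both lower in *tim_up122*. *nrv2* ranged from 296 to 433 CPM in *yw* (median 359), from 276 to 356 in *tim_up126* (325), from 238 to 408 in *tim_up122* (299), from 337 to 409 in *tim_up10* (362) and from 308 to 395 in *tim_in24* (357). The groups overlapped, with 6 of 12 *tim_up122* libraries and 1 of 12 *tim_up126* libraries below the lowest *yw* library. The log2 fold change was -0.24 in *tim_up122* (SE 0.055, adjusted p = 0.00165 by edgeR), and it held with each library left out. In *tim_up126* it was -0.16 (SE 0.055, adjusted p = 0.0341). That call ended with the random replicate block (0.122 by limma-voom), without a filter (0.0610), with a filter of 1 CPM in 11 libraries (0.0507), in a fit of the 2 genotypes alone (0.0638), and without any one of *yw* ZT6 replicate 1, ZT10 replicate 1, ZT14 replicate 2 or ZT22 replicate 2, or of *tim_up126* ZT2 replicate 2, ZT6 replicate 1, ZT10 replicate 1, ZT14 replicate 1, ZT18 replicate 2 or ZT22 replicate 2 (-0.18 to -0.13 over left-out fits, adjusted p up to 0.0791). It was 0.00 in *tim_up10* (95% interval -0.13 to 0.13) and -0.05 in *tim_in24* (-0.19 to 0.08).

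*axo* ranged from 89.5 to 121 CPM in *yw* (median 101), from 84.9 to 117 in *tim_up126* (100.2), from 71.6 to 116 in *tim_up122* (87.7), from 91.8 to 109 in *tim_up10* (103) and from 78.7 to 97.8 in *tim_in24* (89.4). Below the lowest *yw* library were 6 of 12 *tim_up122* and 3 of 6 *tim_in24* libraries. The log2 fold change was -0.18 in *tim_up122* (SE 0.065, adjusted p = 0.0480 by edgeR) and -0.17 in *tim_in24* (SE 0.079, adjusted p = 0.115), and -0.02 and 0.02 in *tim_up126* and *tim_up10*. In *tim_in24* the *axo* mean was below *yw* at 6 of 6 time points, and with library totals it was called (-0.24, adjusted p = 0.0274 by edgeR). The *tim_up122* call was absent with the random replicate block (0.149 by limma-voom), with DESeq2 (0.0938), with median-of-ratios factors (0.0620) and with a filter of 1 CPM in 11 libraries (0.0589), and held in only 8 of 23 fits with 1 library left out. It ended without *yw* ZT2 replicate 1, ZT6 replicate 1, either ZT10 or ZT14 replicate or ZT22 replicate 1, and without either ZT2 or ZT22 replicate, ZT6 replicate 1, ZT10 replicate 2, ZT14 replicate 2 or ZT18 replicate 1 of *tim_up122* (-0.21 to -0.13, adjusted p up to 0.153). The other sodium pump subunits on the list, *Atpalpha*, *nrv1* and *nrv3*, gave 0 of 3 calls in each strain by edgeR (0 of 3 also at an unadjusted p under 0.05 and by DESeq2), with log2 fold changes from -0.07 to 0.12.

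Counted by time point, the mean log2 level was below *yw* at every one of the 6 time points for 1 member in *tim_up126* (*wrapper*, beside 13.2% of all genes), 4 in *tim_up122* (*repo*, *Gs2*, *Gat* and *nrv2*, beside 12.8%), 3 in *tim_up10* (*repo*, *Gs2* and *wrapper*, beside 12.7%) and 3 in *tim_in24* (*repo*, *Gs2* and *axo*, beside 12.3%).

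*tim_up126* and *tim_up122*, the strains with the larger upstream deletions, were also set against each other, a contrast added after the data were seen. By edgeR, taking the libraries as independent, *Gat*, *alrm* and *Gs2* were called higher and *moody* lower in *tim_up126* than in *tim_up122*. This gave 4 calls of 9, beside 11.4% of all genes (5.85% higher, 5.57% lower). With the random replicate block 0 of 9 were called by limma-voom (5 at an unadjusted p under 0.05), beside 4.31% of all genes, and without it 4 were. The log2 differences were 0.29 for *Gat* (SE 0.078, adjusted p = 0.0154 by edgeR), 0.30 for *alrm* (adjusted p = 0.0348), 0.19 for *Gs2* (adjusted p = 0.0243) and -0.16 for *moody* (adjusted p = 0.0178). *repo* was at 0.14 (adjusted p = 0.0548), *axo* at 0.16 (0.111), *nrv2* at 0.08 (0.375), *Eaat1* at 0.04 (0.629) and *wrapper* at -0.08 (0.354). The *Gat* call held in 24 of 24 fits with 1 library left out, that of *moody* in 23 (ending without *tim_up122* ZT14 replicate 1, adjusted p = 0.0504), that of *Gs2* in 17 and that of *alrm* in 12. *Gs2* lost its call without *tim_up126* ZT2, ZT6, ZT18 or ZT22 replicate 1 or ZT10 replicate 2, or without *tim_up122* ZT2 or ZT6 replicate 1 (adjusted p up to 0.0565). *alrm* lost it without *tim_up126* ZT2, ZT6 or ZT22 replicate 1 or ZT10, ZT14 or ZT18 replicate 2, or without *tim_up122* ZT2, ZT6, ZT18 or ZT22 replicate 1 or ZT10 or ZT14 replicate 2 (adjusted p up to 0.0886), and in a fit of both strains alone (0.0598). *moody* was not called with DESeq2 (0.0635) or without a filter (0.113). *repo* was called with median-of-ratios factors (0.0489) and in 4 of 24 fits with 1 library left out, and *axo* without a filter (0.0265) and in 1 of 24. *Hml*, *eater* and *NimC1* were also higher in *tim_up126* than in *tim_up122* (0.58, 0.70 and 0.36). With the random replicate block *Hml* alone of these was called. The part of these hemocyte markers was not tested.

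Of the other glial genes on the list, *gcm* and *gcm2* were too low to test, and 10 were tested. In *tim_up122* 2 were called higher and 5 lower, against 1 and 1 in *tim_up126*, 2 and 1 in *tim_up10*, and 2 and 2 in *tim_in24*. Set beside 25.4% of all genes in *tim_up126* and 23.4% in *tim_up10*, the counts there were near the background, and the 7 in *tim_up122* and 4 in *tim_in24* stood beside 26.2% and 25.5%. With the random replicate block 2, 5, 3 and 1 were called, beside 17.2%, 17.8%, 13.1% and 16.6% of all genes. The median log2 fold changes were -0.18 in *tim_up122* and -0.07, -0.08 and -0.07 in the others. The lower genes in *tim_up122* were *e*, which encodes the beta-alanyl-dopamine synthase ebony, at -0.79 (SE 0.17), *Cyp4g15*, a cytochrome P450 gene, at -0.53 (SE 0.10), *Obp44a*, an odorant-binding protein gene, at -0.39, *pnt*, an ETS transcription factor gene, at -0.29, and *zyd*. *Obp44a* was lower in *tim_in24* too (-0.36). *wun2*, a lipid phosphate phosphatase gene, was higher in each comparison, at 0.56, 0.45, 0.84 and 0.61 in *tim_up126*, *tim_up122*, *tim_up10* and *tim_in24*. *drpr*, the engulfment receptor of glia, was higher in *tim_up122* (0.17) and *tim_in24* (0.18). With the random replicate block neither *drpr* call held, nor that of *pnt* in *tim_up122* or of *Obp44a* in *tim_in24*. *Inx2*, a gap junction innexin, was higher in *tim_up10* (0.27).

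The second question was whether the glial genes cycled over 24 h, tested with edgeR's quasi-likelihood test of a cosine and a sine term in each genotype. In *yw* 2 of 9 members were called, beside 15.4% of all genes: *nrv2*, highest in the early day, and *Eaat1*, highest in the night. In *tim_up122* *nrv2* was the 1 call, beside 7.28% of all genes. By edgeR 0 of 9 were called in *tim_up126* (background 6.01%, 2 at an unadjusted p under 0.05, 0 by DESeq2), in *tim_up10* (2.44%, 2 and 0) and in *tim_in24* (1.15%, 1 and 0). Amplitudes, given as the log2 difference between the fitted peak and the daily mean, had medians over the members of 0.10 for *yw*, 0.06 for *tim_up126*, 0.13 for *tim_up122*, 0.10 for *tim_up10* and 0.13 for *tim_in24*. The medians over all genes tested were 0.14, 0.12, 0.13, 0.15 and 0.17.

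*nrv2* in *yw* was 417 and 416 CPM at ZT2, 393 and 355 at ZT6, 368 and 330 at ZT10, 296 and 319 at ZT14, 347 at ZT18, and 359 and 433 at ZT22. In *tim_up122* it was 394 and 408 CPM at ZT2, 362 and 358 at ZT6, 329 and 260 at ZT10, 306 and 238 at ZT14, 246 and 277 at ZT18, and 291 and 264 at ZT22. Both genotypes were highest around ZT2, and ZT2 did not overlap ZT10, ZT14 or ZT18 in either. These time points were picked from the values, and the share of all genes so separated was not counted. The log2 amplitude was 0.19 in *yw* with a peak at ZT1.49 (adjusted p = 0.0173 by edgeR) and 0.30 in *tim_up122* with a peak at ZT4.10 (adjusted p = 0.0169). The *yw* call ended without *yw* ZT14 replicate 1 (adjusted p = 0.0635) and with library totals (0.0602), and that in *tim_up122* without *tim_up122* ZT14 replicate 2 or ZT18 replicate 1 (up to 0.0521). With time points as a factor neither was called (0.178 and 0.0504).

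*Eaat1* in *yw* was 447 and 467 CPM at ZT2, 449 and 468 at ZT6, 467 and 451 at ZT10, 555 and 505 at ZT14, 518 at ZT18, and 531 and 503 at ZT22. All 5 libraries from ZT14 to ZT22 were above all 6 from ZT2 to ZT10. That split was made from the values themselves, and the share of all genes it separates was not counted. The log2 amplitude was 0.14 with a peak at ZT17.7 (adjusted p = 0.0414 by edgeR). The call held in only 1 of 11 fits with 1 *yw* library left out, the one without *yw* ZT10 replicate 1, and ended without any of the other 10 (adjusted p up to 0.0862). It was also absent with library totals (0.0564), without a filter (0.0942) and with time points as a factor (0.285). In the deletion strains the *Eaat1* amplitude was from 0.02 to 0.10, and none was called.

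*alrm* had the largest amplitude of the members in each deletion strain, without passing the threshold: 0.27 in *tim_up126* (adjusted p = 0.0937 by edgeR), 0.42 in *tim_up122* (0.175), 0.25 in *tim_up10* (0.160) and 0.33 in *tim_in24* (0.404), against 0.12 in *yw* (0.246). In *tim_up122* its 2 libraries were 103 and 144 CPM at ZT2, 63.6 and 110 at ZT6, 58.8 and 45.0 at ZT10, 102 and 76.6 at ZT14, 74.3 and 108 at ZT18, and 92.3 and 105 at ZT22. The ZT10 values were below all others of the strain, and *yw* at ZT10 had 106 and 103 CPM. *repo*, the pan-glial gene, had amplitudes from 0.02 to 0.18, with adjusted p from 0.411 to 0.988.

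**Figure D3:**
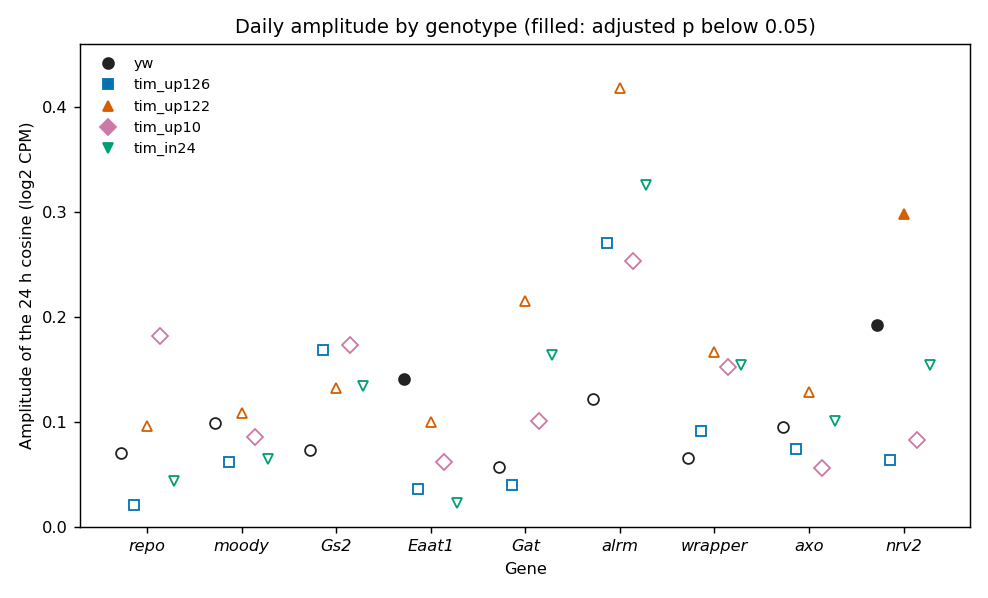
Log2 amplitude of the fitted 24 h rhythm (peak minus daily mean, y axis) of each glial marker gene (x axis) in *yw* and the 4 deletion strains, with filled symbols for an adjusted p under 0.05. Filled symbols are *nrv2* in *yw* (0.19) and *tim_up122* (0.30) and *Eaat1* in *yw* (0.14), and the highest symbol is *alrm* in *tim_up122* (0.42), which is open.

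The change of rhythm itself was tested as a difference of the cosine and sine terms between each strain and *yw*. By edgeR 0 of 9 members were called in any strain, beside 1.59% of all genes for *tim_up126*, 2.03% for *tim_up122*, 0.118% for *tim_up10* and 0% for *tim_in24*. At an unadjusted p under 0.05 there were 3, 1, 2 and 1 members, and DESeq2 called 0. The amplitude of the *alrm* difference was 0.35, 0.37, 0.31 and 0.41 on the log2 scale (adjusted p = 0.176, 0.542, 0.455 and 0.445). A *nrv2* or *Eaat1* rhythm called in *yw* and not in a deletion strain was thus not shown to differ between them. *tim* itself differed in *tim_up126* (1.46, adjusted p = 0.0265 by edgeR). It was not called in *tim_up122* (1.04, 0.127), *tim_up10* (0.77, 0.713) or *tim_in24* (0.85, 0.515). Yet the fitted *tim* amplitude was 2.06 in *yw* and 1.05 in *tim_up122*. A lack of calls among the members therefore does not show that their rhythms were unchanged.

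Among the listed genes, *Gdh*, glutamate dehydrogenase, cycled in *yw* (log2 amplitude 0.56), *tim_up126* (0.48), *tim_up122* (0.37) and *tim_up10* (0.32). *Gs1* cycled in *yw* (0.23), *tim_up126* (0.22) and *tim_up122* (0.23), and its rhythm differed from *yw* in both deletion strains (adjusted p = 0.00588 and 0.00516 by edgeR). Its amplitudes in these strains were alike, and its peak times are not given here. In *yw* *Eaat2* (0.15), the junction genes *Gli* (0.39), *cora* (0.23) and *Nrg* (0.16), and *e* (0.62), *ced-6* (0.15) and *Inx2* (0.16) were also called. *e* (adjusted p = 0.0375 by edgeR) and *Inx2* (0.0433) were near the threshold. Of the barrier and junction genes 3 of 10 were called in *yw*, and of those for transmitter uptake and recycling 3 of 8. Of the other glial genes 3 of 10 were called and of the pump genes 0 of 3, beside 15.4% of all genes. Elsewhere the calls were *cora* in *tim_up126* (0.28), *wun2* (0.38) and the pump subunit gene *nrv1* (0.20) in *tim_up122*, and *Obp44a* in *tim_up10* (0.28). *wun2* was near the threshold (adjusted p = 0.0470 by edgeR). In this order of lists the counts were 1, 2, 0 and 0 in *tim_up126* and 0, 2, 1 and 1 in *tim_up122*. They were 0, 1, 1 and 0 in *tim_up10*, and no listed gene was called in *tim_in24*. Of all genes 6.01%, 7.28%, 2.44% and 1.15% were called in these strains.

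In *tim_up122* the members shared their high and low times, a pattern chosen after the values were seen. The highest time point mean was at ZT2 for 8 of 9 members, all but *wrapper*, beside 20.4% of all genes. The lowest was at ZT10 for 7 of 9, all but *repo* and *nrv2*, beside 18.1% of all genes. The members are not separate observations, since they moved together between replicates (median r of 0.40, given below). Among them only *nrv2* had a called rhythm in this strain. In *yw* 3 members were highest at ZT2 (13.1% of all genes) and 1 was lowest at ZT10 (13.1%). In *tim_up10*, with 1 library per time point, 6 were highest at ZT22 (18.8%) and 5 lowest at ZT10 (22.1%). *tim_up122* ZT10 replicate 2 was the lowest library of its strain for 6 members and of all 47 libraries for 5. Summed over the 9 members, with *Gs2* the largest part, the levels ran from 2547 to 2912 CPM in *yw* (median 2741) and from 1896 to 2801 CPM in *tim_up122* (2261). The other medians were 2526 CPM in *tim_up126*, 2660.1 in *tim_up10* and 2593 in *tim_in24*.

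**Figure D4:**
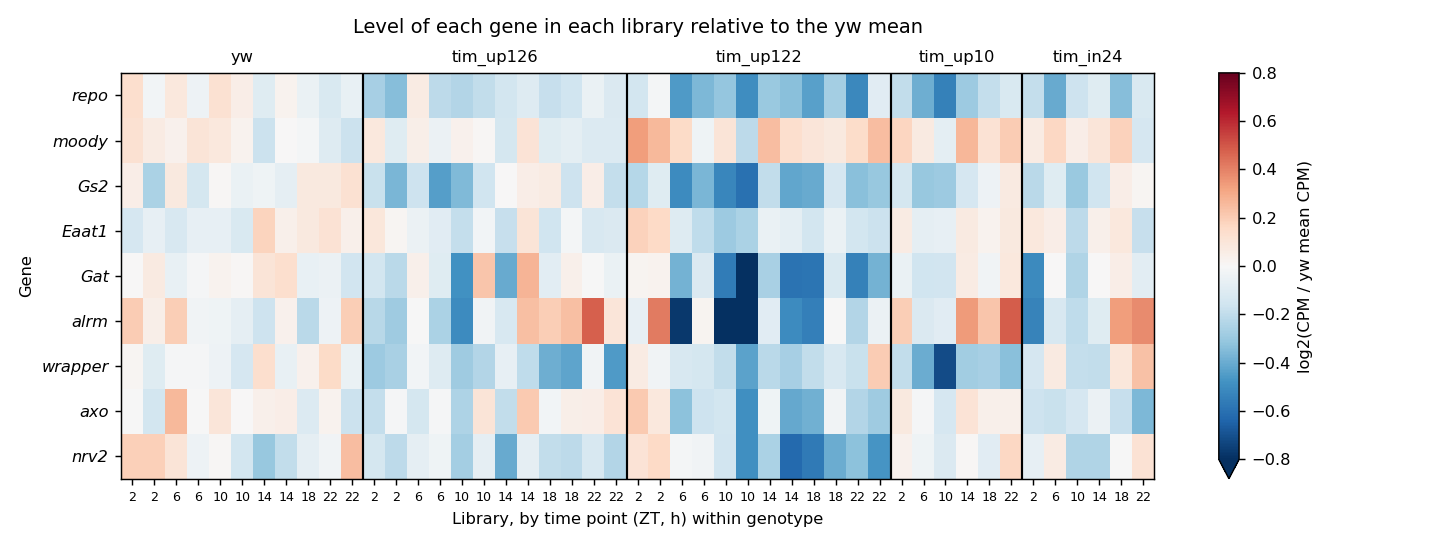
Log2 ratio of each library's CPM to the mean CPM of *yw* over time points (colour scale, whose darkest blue also covers lower values) for each glial marker gene (rows) in each of the 47 libraries (columns, by genotype and time of day, ZT in h). *tim_up122* ZT10 replicate 2, the second of its ZT10 columns, is blue in all 9 rows, with *alrm* at 45.0 CPM.

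Levels of the members tended to move together from library to library. Over 47 libraries, which share genotype, time and scaling, the 36 pairs of genes had a median Pearson r of 0.41, from -0.09 for *moody* with *Gs2* to 0.79 for *Gat* with *alrm*, and 34 were above 0. After *Gat* with *alrm* came *Gs2* with *alrm* (0.76), *Gat* with *axo* (0.75), *Gs2* with *Gat* (0.67) and *repo* with *Gs2* (0.64). *moody* had r from -0.09 to 0.28 with the other 8 over all libraries, and *wrapper* was highest with *repo* (0.47). Taken only between the 2 replicates of a group, over 17 pairs, the median r was 0.40, from -0.04 to 0.79, and *moody* had r from 0.15 to 0.49, highest with *nrv2*. So genes of different glial classes also differed together between replicates of the same strain and time. The r of gene pairs in general was not computed, so this is not shown to be particular to glial genes.

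**Figure D5:**
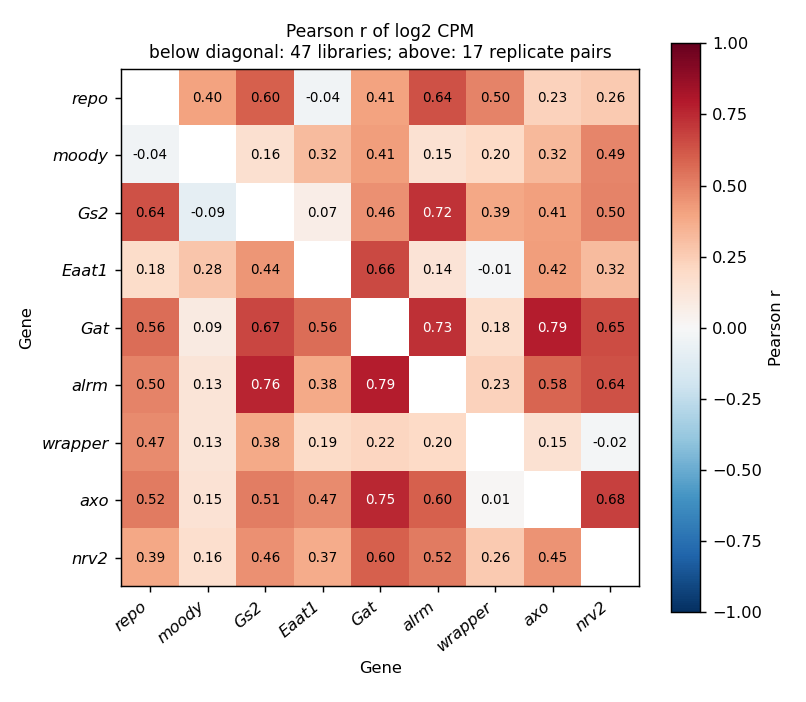
Pearson r of log2 CPM for each pair of glial marker genes (both axes, colour scale and printed values), over the 47 libraries below the diagonal and between replicates over 17 pairs above it. Below the diagonal, pairs among *Gs2*, *Gat*, *alrm* and *axo* have r from 0.51 to 0.79, and pairs with *moody* from -0.09 to 0.28.

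The genes outside the set whose levels were most like a member's, by r of log2 CPM over the 47 libraries, were *CG9360* (0.76) and *mfas* (0.74) for *repo*, *Inx2* (0.61) and *nahoda* (0.58) for *moody*, and *Nepl19* (0.85) and *CG31663* (0.83) for *Gs2*. For *Eaat1* they were *Pxn* (0.65) and *CG13360* (0.62), for *Gat* *CG31663* (0.80) and *CG7509* (0.78), and for *alrm* *CG9394* (0.89) and *CG31663* (0.81). For *wrapper* they were *edl* (0.61) and *GstE12* (0.60), for *axo* *CG43732* (0.82) and *trol* (0.76), and for *nrv2* *CG9512* (0.78) and *CG4409* (0.77). *CG31663* was among them for *Gs2*, *Gat* and *alrm*.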

How the data were processed

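RNA-seq of heads gave a count table of 47 libraries. The deposited counts are whole reads per gene made by the authors, and a second deposited table holds a normalized signal per library, used only in an alternative. The paper names Tophat and ESAT for these steps, whereas the submitters' processing notes name STAR, SAMtools, featureCounts and DESeq2 with build dm6, and the strand setting and annotation are not given in the sources used here. Gene coordinates and exon lengths came from the Ensembl BDGP6 annotation, which uses dm6 coordinates.

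Counts were filtered with filterByExpr, which kept 11027 genes, scaled by TMM and fitted with 30 coefficients (1 per genotype and time point) by the quasi-likelihood test of edgeR 4.0.16 in R 4.3.3. A strain difference is the mean over 6 time points. Rhythms were tested with terms of a 24 h period. Adjusted p-values are Benjamini-Hochberg over all genes tested, with a threshold of 0.05. Levels used CPM, and correlations log2 CPM with a prior count of 2. Alternatives were median-of-ratios factors, library totals, no filter, a filter of 1 CPM in 11 libraries, DESeq2 1.42.0, limma 3.58.1 on the deposited signal (log2 with a pseudocount of 1), limma-voom with and without a random block of replicate number within strain, other models and each library left out. The tests were first tried on simulated data. No replicates agreed within sampling noise.

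All 9 members are named, with list genes that passed the test and the 2 genes most like each member. The members and lists were chosen with earlier results of these data known. A planned search of promoters for motifs was not run.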

Additional observations from a re-analysis of the deposited data

How the results depend on the processing

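The count of members called lower or higher than *yw* moved by over 1.5 times in some settings. With the random replicate block of each strain in limma-voom it was 1 in *tim_up126* (main value 3), 4 in *tim_up122* (7), 0 in *tim_in24* (1) and 0 for *tim_up126* against *tim_up122* (4). Without a filter on low counts it was 1 in *tim_up126* (main value 3), and with library totals 3 in *tim_in24* (main value 1). With 1 library left out it was 0 to 1 in *tim_in24* and 2 to 5 for *tim_up126* against *tim_up122* (main value 4). Members cycling in *yw* numbered 0 with library totals, 1 without a filter, 0 with time points as a factor and 0 to 2 with a library left out (main value 2). In *tim_up122* they numbered 3, 0 and 0 to 1 without a filter, with time as a factor and with a library left out (main value 1). Without a filter 1 cycled in *tim_up126*, and with a library left out 0 to 1 in *tim_in24* (main value 0). The rhythm difference gave 1, *alrm*, without a filter in *tim_up126*, *tim_up10* and *tim_in24* (main value 0). The cause was not tested.

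Values of uncalled members changed sign in *tim_up126* for *alrm*, to -0.046 with library totals, -0.029 in an additive model, -0.00042 with the replicate block and -0.0029 in limma-voom without one, and for *axo*, to 0.0076 in a fit of both genotypes alone. In *tim_up10*, library totals turned *moody* to -0.00029, *Eaat1* to -0.11, *axo* to -0.10 and *nrv2* to -0.12. With a library left out, *alrm* ran from -0.081 to 0.039 and *axo* from -0.050 to 0.015 in *tim_up126*, *axo* from -0.0021 to 0.072 and *nrv2* from -0.039 to 0.044 in *tim_up10*, and *Eaat1* from -0.052 to 0.039, *alrm* from -0.15 to 0.10 and *wrapper* from -0.048 to 0.035 in *tim_in24*. Of 441 strain differences under other settings, 395 kept their direction and side of the threshold.

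Replicate numbers did not pair samples of different genotypes, whose same-numbered libraries had deviations that correlated from -0.133 to 0.0866 over 16 pairs of groups. Within a strain they marked sets of libraries, with a consensus correlation of 0.132 in the random block. With the replicate number as a block shared by the genotypes, 3 members were called in *tim_up126* and 6 in *tim_up122*. *axo* lost its call there (-0.17, adjusted p = 0.0623 by edgeR), as it did in the same 3 genotypes without the block (0.0598). *tim_up10* and *tim_in24* have 1 library per time point, so no shared block could be fitted and their spread is assumed to be that of the other strains. Member counts as low as 62 in a library limit the precision of small differences.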
